A study of Mus musculus with 14 samples.

Results

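mmu-miR-224, mmu-miR-455, mmu-miR-193b and mmu-miR-574-3p are 4 of the 375 microRNA assays on a TaqMan rodent card, a plate of real-time PCR assays, each for one small RNA. They were chosen from these arrays because each was lower in allogeneic than in syngeneic samples both in whole heart grafts and in graft infiltrating lymphocytes (GIL), and because they lie outside the larger microRNA clusters of the card. The allogeneic against syngeneic values of the members are therefore given as a description, and their calls and ranks there restate the choice. Tests of the members are kept for comparisons that do not contain this difference. Those comparisons still use the graft arrays by which the members were chosen.

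Mice aged 8 to 10 weeks received heterotopic heart transplants, in which the recipient keeps its own heart. In the syngeneic groups both donor and recipient were C57BL/6, and the labels give no rejection. In the allogeneic groups the donor was BALB/c and the recipient C57BL/6, and the labels give rejection. Hearts were taken on day 7 (3 syngeneic and 3 allogeneic arrays) and GIL on day 5 (3 and 3 arrays), and 1 array each came from untransplanted hearts (normal BALB/c mice) and from peripheral blood cells (normal C57BL/6 mice, labelled PBMC). Each array held RNA pooled from 3 animals, so n counts pools, and p-values measure the spread between pools. Because the allogeneic heart is of another strain than the syngeneic heart, strain and rejection cannot be told apart in the comparison of grafts, and the normal heart shares its strain only with the allogeneic grafts. In bulk RNA, fewer cells of a type and less of a microRNA per cell cannot be told apart.

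A level here is minus the threshold cycle (Ct) of an assay plus the array's mean Ct over its reference assays (microRNA assays detected on every array of the table), in log2 units, so a difference of 1 is about 2-fold and 0 is the mean of the reference assays. A Ct of 35 or later counts as not detected. Levels of different assays are not compared, because PCR assays differ in efficiency. Heart arrays detected 228 to 260 microRNA assays at a mean reference Ct of 22.4 to 23.9, and GIL and PBMC arrays 161 to 221 at 23.2 to 28.0. Pool 3 of the allogeneic GIL differed from the rest, with the fewest assays detected (161) and the latest reference Ct (28.0), and results that rest on it are also given without it. All 6 cardiac muscle markers were detected on every heart array. GIL arrays carried the leukocyte marker miR-142 (mean level of both assays 0.16 to 2.27, against 3.49 in PBMC). They also carried fibroblast and smooth muscle markers, at a mean level of 0.61 to 2.39 where PBMC stood at -6.19. The cardiac muscle list stood at -3.90 to -0.80 in GIL and at -9.73 in PBMC. These means count assays that were not detected at the limit of Ct 35. Of the 6 cardiac markers, 3 were detected on every array of each GIL group, and miR-208b was detected on none. In PBMC, 4 of the 6 cardiac markers and 2 of the 6 fibroblast and smooth muscle markers were not detected.

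A microRNA is a short RNA that guides an Argonaute protein to messenger RNAs, which it represses mainly by pairing through its seed, the stretch near the 5′ end. Human miR-224 is best known for its rise in liver cancer, and in mouse ovary it acts in granulosa cells under TGF-beta signalling. miR-455 is known from cartilage, and in mouse miR-193b and miR-365 are made from neighbouring genes and studied in brown fat. miR-574 has been studied in mouse cardiac hypertrophy.

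The mature sequences are printed to show the seed of each member, through which it would pair with its targets. They are RefSeq entries (GRCm38.p6), written 5′ to 3′ with the seed (bases 2 to 8) in capitals. The assay names for miR-224, miR-455 and miR-193b give no arm, so both arms of each are shown.
mmu-miR-224-5p: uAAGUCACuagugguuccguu
mmu-miR-224-3p: aAAUGGUGcccuagugacuaca
mmu-miR-455-5p: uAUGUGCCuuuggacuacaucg
mmu-miR-455-3p: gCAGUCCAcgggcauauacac
mmu-miR-193b-5p: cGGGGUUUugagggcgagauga
mmu-miR-193b-3p: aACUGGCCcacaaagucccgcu
mmu-miR-574-3p: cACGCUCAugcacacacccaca

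These 7 sequences hold 7 distinct seeds, so no seed is shared among the 4 members. Among the mouse-named assays that matched a RefSeq sequence by name, no other was found with the seed of a member. Assays without such a match and the rat-named assays were not compared. The miR-193 assay did not match by name and was assigned to Mir193a, the paralogue of miR-193b. Its mature sequence is shown for that reason, and that of miR-365 because its gene lies beside that of miR-193b.
mmu-miR-193a-3p: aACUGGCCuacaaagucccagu
mmu-miR-365-3p: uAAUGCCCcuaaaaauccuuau

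miR-193b-3p and miR-193a-3p have the same seed and differ at 3 of 22 bases, C9U, G20A and C21G, counted from 1 at the 5′ end with the base of miR-193b-3p first.

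In GRCm38.p6 the 4 genes lie on 4 chromosomes. Mir224 is at chrX:72261031-72261112 on the minus strand, within the span of Gabre, which encodes a GABA-A receptor subunit, and 1111 bases from Mir452. Mir455 is at chr4:63256851-63256932, within the span of the collagen gene Col27a1. Mir193b is at chr16:13449523-13449601 on the plus strand, within the spans of the long non-coding RNAs Gm32817 and Gm53058, and 4238 bases from Mir365-1. Mir574 is at chr5:64970318-64970395 on the plus strand, where the spans of Fam114a1 and Tlr6, a Toll-like receptor gene, overlap. Whether these positions are intronic or exonic was not examined.

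miR-224 was lower on each allogeneic array than on any syngeneic array, in hearts and in GIL. In hearts its level was -0.93, -1.28 and -1.15 on the syngeneic arrays, -3.23, -2.47 and -2.93 on the allogeneic arrays and -2.09 on the normal heart array. The normal heart thus lay between the graft groups, and the allogeneic grafts were 3.37-fold lower than the syngeneic ones (difference -1.75 ± 0.27, SE, n = 3 pools per group). In GIL the level was -0.73, -0.17 and -0.26 on the syngeneic arrays, -2.28, -2.19 and -5.03 on the allogeneic arrays and -5.33 in PBMC. The allogeneic GIL were 6.88-fold lower (-2.78 ± 0.81). Pool 3, the array that detected the fewest assays, was far below the other allogeneic pools, and without it the GIL difference was -1.75 ± 0.27.

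miR-455 had the largest mean difference of the 4, by more than the others in GIL and within its SE of that of miR-224 in hearts. In hearts its level was -0.79, -1.02 and -0.78 on the syngeneic arrays, -2.42, -2.18 and -3.56 on the allogeneic arrays and -0.24 on the normal array, so that the order ran from normal through syngeneic to allogeneic with no overlap. The allogeneic hearts were 3.63-fold lower than the syngeneic hearts (-1.86 ± 0.39). In GIL it was -1.36, -0.47 and -1.07 on the syngeneic arrays and -3.63 and -4.17 on allogeneic pools 1 and 2, while it was not detected on pool 3 or in PBMC. With pool 3 at the detection limit (-7.05) the difference was -3.98 ± 0.92, and without pool 3 it was -2.83 ± 0.37.

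miR-193b was also lower on each allogeneic array than on any syngeneic array of its tissue. In hearts its level was 2.44, 2.88 and 2.90 on the syngeneic arrays, 1.61, 1.98 and 1.40 on the allogeneic arrays and 2.91 on the normal array. The syngeneic and normal hearts were close together, and the allogeneic hearts were 2.11-fold lower than the syngeneic ones (-1.08 ± 0.26). In GIL the level was 0.68, 1.42 and 1.30 on the syngeneic arrays, -0.83, -0.40 and -0.95 on the allogeneic arrays and 2.39 in PBMC. Here PBMC stood highest, and the allogeneic GIL were 3.63-fold below the syngeneic GIL (-1.86 ± 0.30).

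miR-574-3p had the smallest mean difference of the 4 in both tissues. In hearts its level was 1.93, 2.26 and 2.75 on the syngeneic arrays, 1.34, 1.22 and 1.59 on the allogeneic arrays and 2.90 on the normal array, and the gap between the nearest syngeneic and allogeneic pools was narrow. The allogeneic hearts were 1.90-fold lower (-0.93 ± 0.28). In GIL it was 2.40, 2.65 and 2.73 on the syngeneic arrays, 1.20, 1.20 and 1.01 on the allogeneic arrays and 0.21 in PBMC. Pools agreed closely within each group, pool 3 included, and the allogeneic GIL were 2.75-fold lower (-1.46 ± 0.21).

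**Figure D1:**
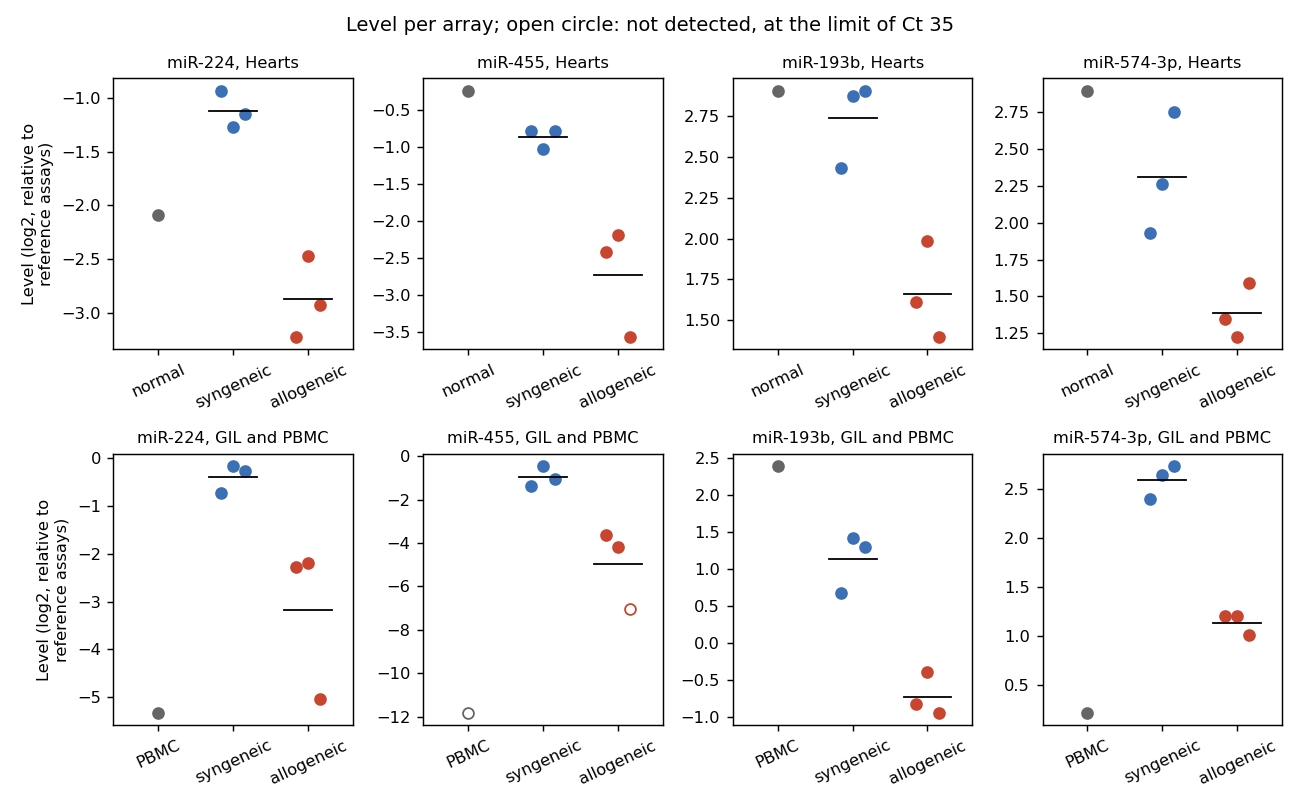
Level (log2, relative to the reference assays) of each member on each array, hearts above and GIL with PBMC below; points are arrays of 3 pooled animals, lines are means of 3 arrays, and open circles are arrays where the assay was not detected. In all 8 panels the 3 allogeneic points lie below the 3 syngeneic points, and the axes differ between panels.

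The allogeneic arrays lay wholly below the syngeneic arrays for all 4 members in both tissues. Over all assays tested this held for 27.7% of 238 in hearts and 33.3% of 201 in GIL, and an assay was called lower (limma, Benjamini-Hochberg adjusted p under 0.05) in 15.1% in hearts and 23.9% in GIL. The choice fixed this direction, so nothing is read from the members' own count. The median difference was -1.41 over the members and 0.02 over all assays in hearts, and -2.32 and -0.24 in GIL. Of 198 assays tested in both tissues, 12 (6.06%) were called lower in both. These are the 4 members with miR-434-3p, miR-34b-3p, miR-497, miR-214, miR-136, miR-199a-3p, miR-542-5p and miR-126-3p. Ranked by the larger of the 2 adjusted p, the members stood 4, 5, 9 and 10. These calls and ranks come from the comparisons that chose the members and are no test of them. The last assay inside was miR-126-3p (-1.64 in hearts and -1.07 in GIL) and the first outside was miR-672 (-1.33 and -5.61).

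**Figure D2:**
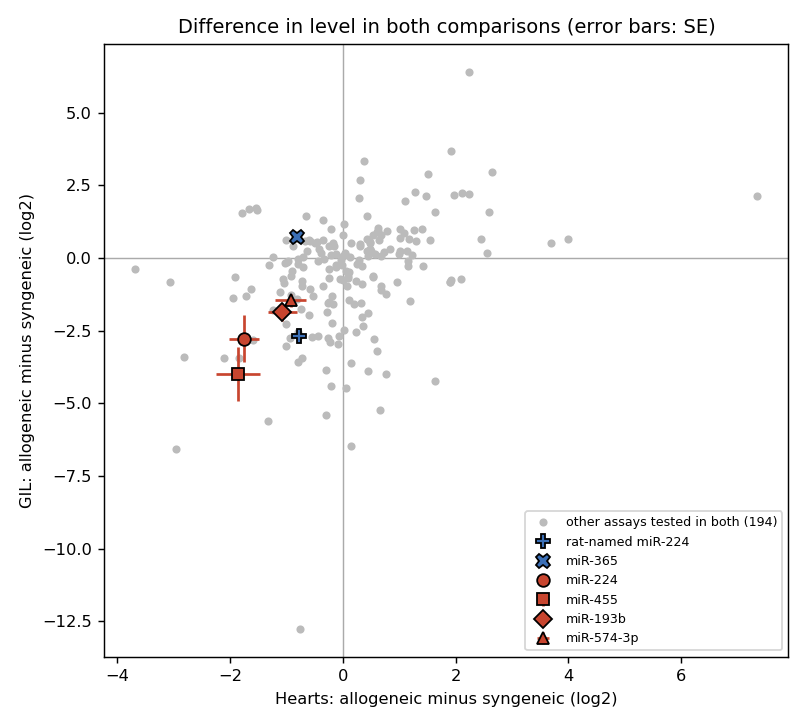
Difference in level between allogeneic and syngeneic arrays (log2) in hearts (horizontal) and in GIL (vertical) for the 198 assays tested in both; red symbols are the members with SE bars, blue symbols are the rat-named miR-224 assay and miR-365, and grey points are other assays. The members lie in the lower left by choice, between miR-574-3p at -0.93 and -1.46 and miR-455 at -1.86 and -3.98, while miR-365 lies above 0 in GIL.

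Some other cell type markers moved in the same comparisons, and some did not. In hearts, 3 of 5 tested fibroblast and smooth muscle markers (median difference -1.03), 5 of 6 cardiac muscle markers (-1.60) and 2 of 2 endothelial markers (-1.47) were called lower, and both assays of the leukocyte microRNA miR-142 were called higher (1.33), where 17.2% of assays were called higher. The mean level of the fibroblast and smooth muscle list was 0.94 to 3.22 in syngeneic and 0.09 to 2.11 in allogeneic hearts, and that of the cardiac list 3.01 to 3.51 and 1.58 to 1.96. The former mean is over 6 assays. It includes miR-199a-5p, which was not tested in this comparison and counts at the limit where it was not detected. Tested in hearts but not called were miR-143 (-0.47) and miR-152 (-0.59) of the same list. In GIL, 4 of 6 fibroblast and smooth muscle markers were called lower (median -1.19), while miR-143 (0.56) and miR-145 (-0.15) were not called. The mean level of that list was 1.66 to 2.39 in syngeneic and 0.61 to 1.37 in allogeneic GIL. Of the endothelial markers, 1 of 2 was called lower (median -0.65). The cardiac markers went the other way in GIL, with 2 of 3 tested called higher (median 1.66), where 12.4% of assays were, and so did miR-142, with 1 of 2 assays called higher (median 1.30). Of the lymphocyte markers in hearts, miR-342-3p was called higher (1.30) and miR-150 was not called (-0.49). Of the erythroid markers there, miR-451 was called higher (3.99) and miR-486 was not called (-0.16). The myeloid marker miR-223 was called in neither tissue (0.96 in hearts, -0.83 in GIL). In GIL miR-150 (0.51), miR-342-3p (0.58) and miR-451 (0.67) were not called. Marker calls are given only for levels scaled to the mean of the reference assays. The part of all these markers in the values of the 4 members was not tested.

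Syngeneic and allogeneic hearts were run together on 2 days. The differences within a day, with 1 array per group, had to be negative because the heart groups do not overlap, and their sizes were -2.29 and -1.65 for miR-224, -1.63 and -2.54 for miR-455, -0.83 and -1.48 for miR-193b, and -0.58 and -0.67 for miR-574-3p. In GIL no day held both groups, so run day and group cannot be told apart there.

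The choice of scaling mattered more in GIL than in hearts. All 4 members kept a negative difference under each of 6 scalings in both tissues. In hearts the differences ranged from -2.01 to -1.60 for miR-224, from -2.12 to -1.71 for miR-455, from -1.33 to -0.92 for miR-193b and from -1.19 to -0.77 for miR-574-3p. In GIL the differences were smallest when scaled to snoRNA202, the small nucleolar RNA that the authors used. They were then -1.89 for miR-224, -3.09 for miR-455, -0.97 for miR-193b and -0.57 for miR-574-3p. That scaling moved the median of all GIL assays by 0.89, from -0.24 to 0.65. Under it the syngeneic and allogeneic GIL arrays stayed apart for 1 of the 4 members, miR-455, and under MammU6 or both small nucleolar RNAs for 2, miR-224 and miR-455. In hearts the arrays stayed apart for 3 of 4 under snoRNA202, the exception being miR-574-3p, and for 4 of 4 under the mean or median of the reference assays, MammU6 and both small nucleolar RNAs.

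The overlap can be seen in relative quantities that the authors computed with snoRNA202 and PBMC set to 1. In the authors' deposited table, miR-574-3p stood at 5.96, 6.85 and 9.30 in syngeneic GIL and at 4.24, 7.95 and 3.46 in allogeneic GIL. For miR-193b the authors' deposited table gives 0.398, 0.645 and 0.760 in syngeneic GIL and 0.228, 0.577 and 0.197 in allogeneic GIL. In both cases allogeneic pool 2 lay among the syngeneic pools.

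**Figure D3:**
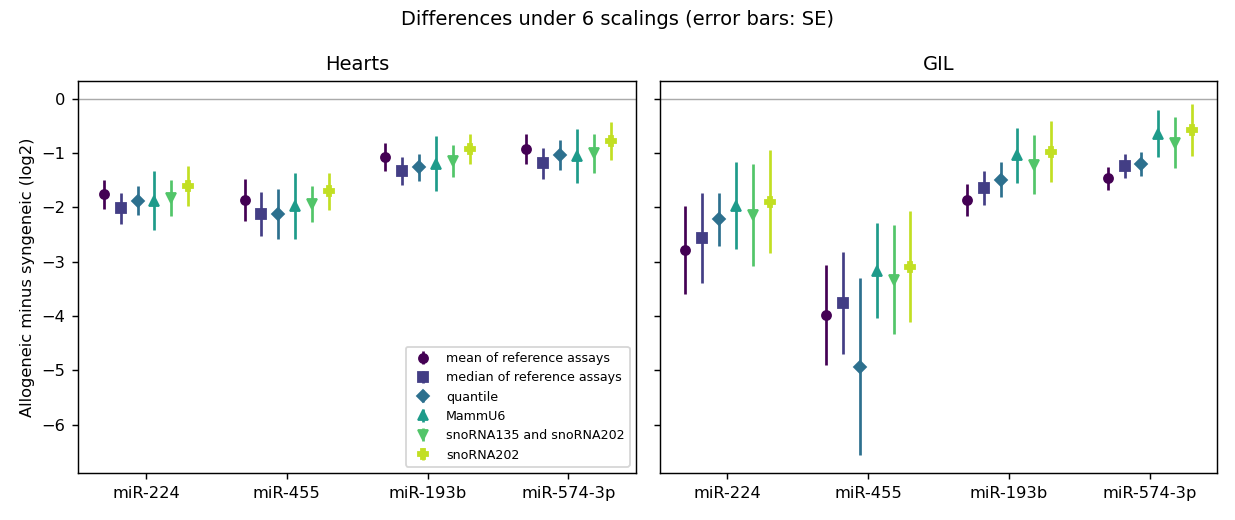
Difference in level between allogeneic and syngeneic arrays (log2, with SE bars, n = 3 pools per group) for each member under 6 scalings, in hearts on the left and GIL on the right. All values lie below 0, and in GIL the value of miR-574-3p ranges from -1.46 scaled to the mean of the reference assays to -0.57 scaled to snoRNA202.

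The comparison with normal hearts asked how the grafts as a whole differ from an untransplanted heart, with both graft groups weighted equally so that the difference does not contain the one that chose the members. The SE of this test and of those below still rests on the spread of the arrays by which the members were chosen, so their p-values are not wholly independent of the choice. None of the 4 members passed (limma, 2 had an unadjusted p under 0.05), where 20.8% of 245 assays were called lower and 19.6% higher. miR-455 came nearest (a p that misses the threshold, with 1 normal array, does not show that levels were alike), at -1.55 ± 0.52 (adjusted p = 0.0532), followed by miR-574-3p at -1.05 ± 0.37 (0.0607), miR-193b at -0.71 ± 0.34 (0.138) and miR-224 at 0.09 ± 0.35 (0.831). miR-455 passed without allogeneic pool 3 (-1.34, adjusted p = 0.0195) or allogeneic pool 2 (-1.67, 0.0354), and with all pools when scaled to both small nucleolar RNAs (-1.65, 0.0351) or at a limit of Ct 32 (-1.54, 0.0451). Over its alternatives the adjusted p ran from 0.0195 to 0.316. miR-574-3p passed without syngeneic pool 3 (-1.13, 0.0489, range 0.0489 to 0.429).

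The graft groups stood at different places against the normal heart. In syngeneic hearts miR-224 was 0.97 ± 0.38 above the single normal array, while miR-455 (-0.62 ± 0.55), miR-193b (-0.17 ± 0.37) and miR-574-3p (-0.58 ± 0.39) were below it. In allogeneic hearts all 4 were below it, by -0.79 ± 0.38 for miR-224, -2.48 ± 0.55 for miR-455, -1.24 ± 0.37 for miR-193b and -1.51 ± 0.39 for miR-574-3p. These separate values were not tested, since they contain the contrast that chose the members. The sign of the small syngeneic difference of miR-193b turned under 4 alternatives, among them scaling to MammU6 (0.17) and to snoRNA202 (0.27).

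The comparison with PBMC asked how infiltrating cells differ from blood cells, again with both GIL groups weighted equally. All 4 members passed, 3 higher and 1 lower, where 28.4% of 229 assays were called higher and 35.4% lower. miR-455 was not detected in PBMC and was 8.86 ± 1.25 higher in GIL with the missing values at the limit (adjusted p = 0.00237, range over alternatives 7.05e-05 to 0.0853, lost by quantile normalization). It entered this test through the syngeneic GIL alone, the group where it was highest, and its PBMC value is the limit itself. Its call was therefore partly set by the detection filter and is not read as support. Taken on the syngeneic GIL alone, where it was detected on 3 of 3 arrays, it was at least 1849-fold higher than in PBMC, a difference of 10.85 that depends on the limit of Ct 35 and on the scaling. It was 8.20 at a limit of Ct 32, 8.66 by quantile normalization and 9.76 scaled to MammU6. miR-574-3p was 3.15-fold higher in GIL (1.65 ± 0.29, adjusted p = 0.00496), a call lost when scaled to MammU6 (0.97, 0.190). miR-193b was the member that ran the other way, 4.56-fold lower in GIL (-2.19 ± 0.41, adjusted p = 0.00626). It did not pass when scaled to snoRNA202 (-1.27, 0.231) or to both small nucleolar RNAs (-1.53, 0.141).

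miR-224 was 11.7-fold higher in GIL than in PBMC (3.55 ± 1.09, adjusted p = 0.0329), and this call was lost most often of the 4. It did not pass under 8 of 16 alternatives (adjusted p 4.76e-04 to 0.0681), including the removal of any 1 of syngeneic pools 1, 2 and 3 or of allogeneic pools 1 and 2. Without allogeneic pool 3 it was 4.09 ± 0.34 (4.76e-04). As for the normal heart, PBMC is 1 array and its spread was taken from the other groups. The 6 fibroblast and smooth muscle markers were all called higher in GIL than in PBMC (median 8.04), as were 2 of 2 endothelial markers (5.02) and 3 of 3 tested cardiac muscle markers (8.41). Both miR-142 assays (median -2.40), the myeloid marker miR-223 (-2.90) and 1 of 2 lymphocyte markers, miR-150 (-2.72), were called lower in GIL, as miR-193b was. The erythroid marker miR-451 was called lower too (-2.02). The part of these markers in the values of the members was not tested.

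**Figure D4:**
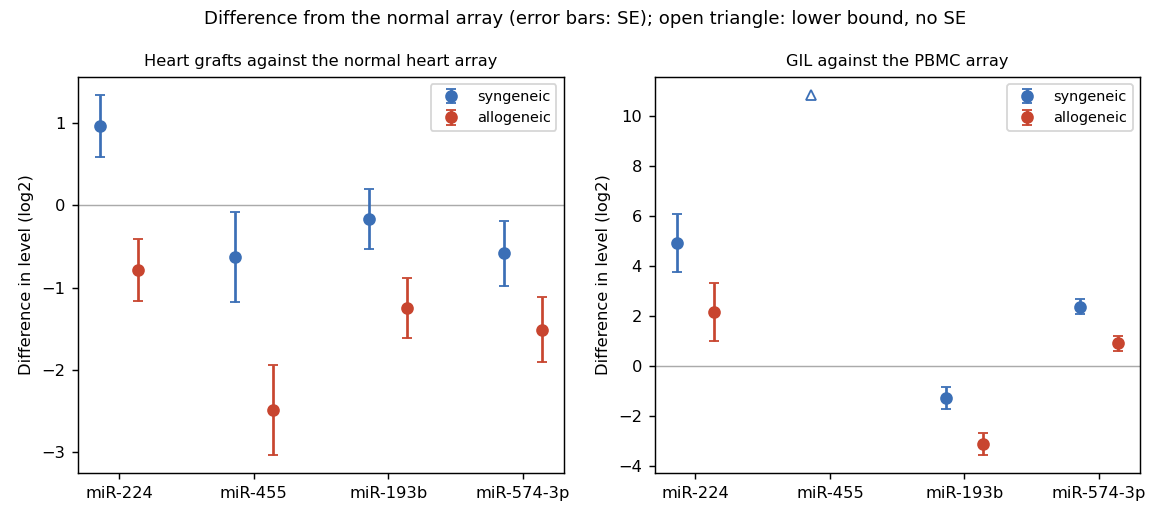
Difference in level (log2) of syngeneic and allogeneic arrays from the single normal array, heart grafts against normal heart on the left and GIL against PBMC on the right, with SE bars; the open triangle is a lower bound, and allogeneic GIL are not shown for miR-455, which was detected on 2 of 3 of those arrays and not in PBMC. In hearts the syngeneic point of miR-224 lies above 0 at 0.97, and in GIL miR-193b is the member below 0, at -1.26 and -3.12.

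GIL and heart grafts were set side by side on a common scale of 133 assays detected on all 14 arrays, where tissue, day and run of the table cannot be told apart. Of the members, 2 were called higher in GIL, where 23.7% of 241 assays were called higher and 29% lower. miR-574-3p was 3.02-fold higher in GIL than in hearts (1.59 ± 0.17, adjusted p = 6.45e-05, called under 23 of 23 alternatives) and miR-224 3.48-fold higher (1.80 ± 0.46, 0.00859, lost when scaled to both small nucleolar RNAs, 0.0547). miR-193b (-0.42 ± 0.19, 0.0944) and miR-455 (0.41 ± 0.54, 0.542) did not pass. miR-455 passed without allogeneic GIL pool 3, at 0.93 ± 0.28 (0.0197), and at a limit of Ct 32, at 1.04 (0.00548). In the same comparison 3 of 6 fibroblast and smooth muscle markers were called higher in GIL (median 1.01). Called lower were 6 of 6 cardiac muscle (-3.42), 2 of 2 endothelial (-0.97) and 2 of 2 erythroid markers (-4.02). Neither miR-142 assay (median 0.04), neither lymphocyte marker (-0.06) and not the myeloid marker miR-223 (-0.97) were called. Their part in the members' values was not tested.

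On this common scale the order of the 6 conditions differed between members. Syngeneic GIL stood highest for miR-224 (-0.42 ± 0.30, SD, n = 3), miR-455 (-1.01 ± 0.46) and miR-574-3p (2.56 ± 0.17), each apart from the next condition. For miR-193b PBMC stood highest (2.35), and normal heart (1.37), syngeneic hearts (1.20 ± 0.27) and syngeneic GIL (1.09 ± 0.40) followed. The lowest condition was PBMC for miR-224 (-5.37) and miR-455 (not detected), allogeneic GIL for miR-193b (-0.75 ± 0.29) and allogeneic hearts for miR-574-3p (-0.29 ± 0.26). Neighbours that overlapped were syngeneic hearts, allogeneic GIL and normal heart for miR-224, allogeneic hearts and allogeneic GIL for miR-455, syngeneic hearts and syngeneic GIL for miR-193b, and allogeneic GIL and syngeneic hearts for miR-574-3p.

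The card held 4 assays related to the members by name, gene neighbourhood or seed. miR-365 is made from the gene beside Mir193b and from a second gene on chromosome 11 beside Mir193a, and its mature sequence cannot tell them apart. In hearts its level was 1.07, 0.93 and 0.75 on syngeneic and 0.46, 0.21 and -0.34 on allogeneic arrays, a difference of -0.81 ± 0.27 that did not pass (limma adjusted p = 0.0570) but did under 3 of 18 alternatives (0.0206 to 0.290). In GIL it was -1.78, -1.24 and -0.90 on syngeneic and -0.82, -0.56 and -0.38 on allogeneic arrays, a difference of 0.72 ± 0.30 in the other direction that did not pass either (0.106). Scaled to MammU6, snoRNA202 or both small nucleolar RNAs the GIL difference was 1.54, 1.61 and 1.37, and it passed under none of 17 alternatives (0.0541 to 0.354).

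The ratio of miR-193b to miR-365 on the same array does not depend on the scaling. In hearts it was 1.82 ± 0.41 log2 units in syngeneic and 1.56 ± 0.35 in allogeneic grafts (SD, n = 3), with overlapping arrays, and 2.01 in the normal heart. In GIL it was 2.45, 2.66 and 2.20 on the syngeneic arrays and -0.01, 0.16 and -0.57 on the allogeneic arrays, so the groups lay far apart, and PBMC stood at 3.14. The mean GIL ratio was 5.98-fold lower in allogeneic pools, against 1.20-fold in hearts. The ratio contains the difference by which miR-193b was chosen and was not tested.

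miR-193, which shares the seed of miR-193b, was detected in heart grafts alone. Its level was -3.99, -4.24 and -4.08 on the syngeneic arrays and -5.24 and -5.0 on allogeneic pools 1 and 2, and it was not detected on allogeneic pool 3, the normal heart or any GIL or PBMC array. The deposited table marks the wells of both these allogeneic pools and of syngeneic pool 3 as flagged. The difference in hearts, with pool 3 at the limit, was -3.15 ± 1.67 and did not pass (adjusted p = 0.186). Without pool 3 it was -0.99 ± 0.22 and passed (0.0325).

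The card also held a rat-named miR-224 assay, whose sequence was not used here. In GIL it fell by 2.69 ± 0.42 in allogeneic pools (adjusted p = 0.00770, arrays apart; passed under 14 of 17 alternatives, 0.00346 to 0.0798), beside the -2.78 of the mouse-named assay. Without allogeneic pool 3 the difference was -2.20 ± 0.31, beside -1.75 ± 0.27 for the mouse-named assay. The rat-named assay read the same RNA pools by which miR-224 was chosen and is not independent of that choice. In hearts its difference of -0.78 ± 0.42 did not pass (0.193), and its arrays overlapped. The log2 ratio of the mouse-named to the rat-named assay on the same array was not constant. It was 0.62 ± 0.48 in syngeneic hearts and -0.35 ± 0.35 in allogeneic hearts (SD, n = 3). In GIL the ratio was -0.84 ± 0.14 on syngeneic and -0.94 ± 0.95 on allogeneic arrays, where pool 3 stood at -2.01. In PBMC it was 2.75. The assays gave different values for miR-224 in hearts and against PBMC. The rat-named assay was higher in GIL than in PBMC by 7.19 ± 0.57 (limma adjusted p = 2.42e-04), where the mouse-named assay gave 3.55 ± 1.09. It was also higher in GIL than in hearts, by 2.82 ± 0.32 (7.41e-05), where the mouse-named assay gave 1.80 ± 0.46. miR-452, from the gene next to Mir224, was not detected on any of the 14 arrays.

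**Figure D5:**
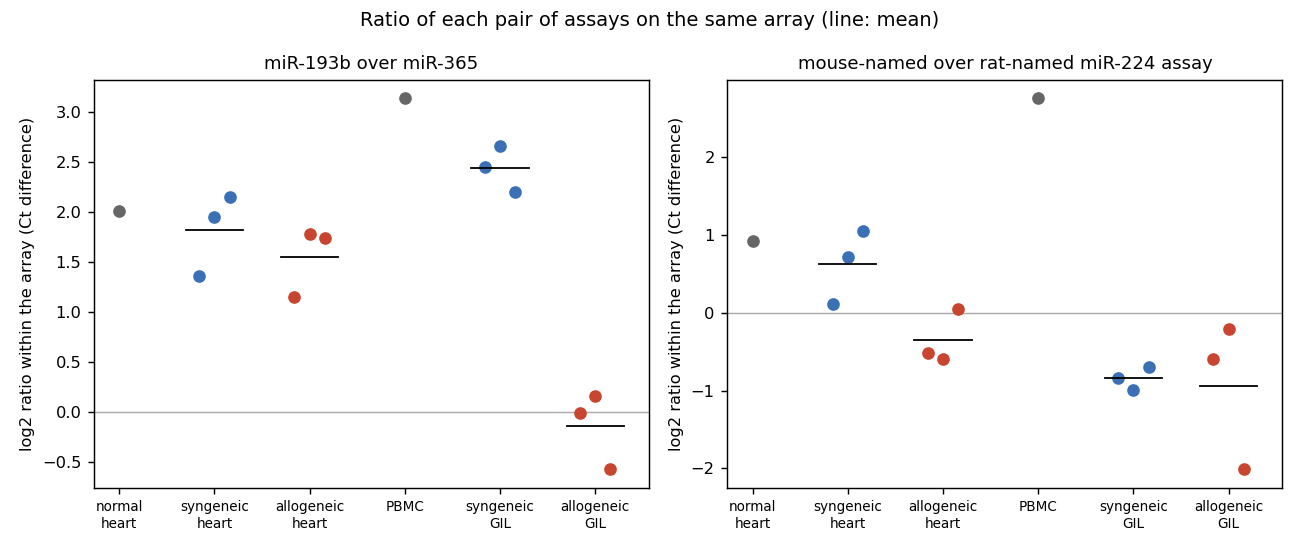
Log2 ratio within each array, as a Ct difference, of miR-193b over miR-365 on the left and of the mouse-named over the rat-named miR-224 assay on the right; points are arrays and lines are means of 3. In the left panel the mean is 2.44 in syngeneic GIL and -0.14 in allogeneic GIL, while the heart groups overlap.

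The assays most like each member were found by the root mean square difference in level over 14 arrays, each table centred on its own mean, among 208 assays detected on at least 10 arrays. For miR-224 they were miR-497 (0.74), miR-34b-3p (0.86) and miR-218 (0.91). For miR-455 they were miR-136 (0.75), miR-434-3p (0.90) and miR-376c (0.97), and for miR-193b miR-322 (0.42), miR-542-5p (0.44) and miR-872 (0.45). For miR-574-3p they were miR-152 (0.43), miR-335-5p (0.45) and miR-125b-5p (0.46). The median over all candidates was 1.89, 2.96, 1.38 and 1.34, in the order of the members above. The members were less like each other than like the 3 nearest assays named, from 0.98 between miR-224 and miR-574-3p to 2.92 between miR-455 and miR-193b. Among the 208 candidates, miR-574-3p ranked 5 for miR-224 and miR-193b ranked 97 for miR-455. The measure uses the same arrays by which the members were chosen and is a description.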

How the data were processed

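Small RNA was measured on 14 TaqMan array cards in 2 tables of 7. Each card received 300 ng of total RNA, 100 ng from each of 3 animals, reverse transcribed and preamplified with Megaplex primers, per the labels' protocols. The deposited Ct values, a score in PCR cycles exported from SDS per the file headers, were used. The authors' deposited delta Ct is on a log2 scale with its sign turned, and equals Ct minus the Ct of snoRNA202 with undetermined wells at 40, to within 5e-04. The relative quantity, deposited as a ratio, has the normal array of its table at 1. Baseline and threshold settings are not given in the sources used here. The 381 detectors comprise 375 microRNA assays and 6 controls, and 1 heart well (let-7b) with a differing sample name was left out.

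Ct values that were undetermined or at 35 or later were set to 35. Levels were scaled to those microRNA assays that every array of a table detected (210 for hearts, 137 for GIL and PBMC). Differences between group means came from limma 3.58.1 (R 4.3.3; lmFit, eBayes, two-sided, 3 groups per table or 6 over both), with Benjamini-Hochberg adjustment over the assays detected on all arrays of at least 1 group compared. The spread of a normal array, which has no replicate, was borrowed from the graft groups, and arrays limit the precision by their number. The fit was tested on simulated data. Of 335 mouse-named assays, 280 matched a RefSeq mature sequence by name, and miR-193 was assigned to miR-193a-3p by hand. The assays named are the members, assays sharing their number, gene neighbourhood or seed, the 3 most alike per member, the marker lists and the controls. The assays listed beside the members as called lower in both tissues, or next to that threshold, were named after their values were seen. Members, marker lists and comparisons were chosen with earlier results of these data known. Replicate numbers did not pair the arrays. Scalings, detection limits, filters, blocks and single arrays left out were tried as alternatives.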

Additional observations from a re-analysis of the deposited data

How the results depend on the processing

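The allogeneic difference of each member kept its sign under 18 of 18 alternatives in hearts and 17 of 17 in GIL. The members were chosen for this sign and their groups do not overlap. Leaving out an array, dropping the filter or adding a block could hardly turn it, so little is read from these counts. In GIL the difference ran from -3.27 to -1.75 for miR-224 and from -4.95 to -2.83 for miR-455. It ran from -2.09 to -0.97 for miR-193b and from -1.59 to -0.57 for miR-574-3p. The counts of calls over all assays also moved. In hearts the 77 calls (41 higher, 36 lower) became 34 scaled to MammU6, 42 with no filter on detection, 46 with the replicate block and 2 when run day was fitted as a fixed block. That last fit compares the groups only on the days that held both, with 1 array per group, so its count says little about run day. Leaving out 1 array gave 42 to 81, the low counts being without syngeneic pool 2 (42), syngeneic pool 3 (45) and allogeneic pool 1 (43). The split was 42 to 23 scaled to snoRNA202 and 24 to 56 scaled to the median in place of the mean. In GIL the 73 calls (25 higher, 48 lower) became 48 (38 and 10) scaled to snoRNA202, 31 (21 and 10) scaled to both small nucleolar RNAs, 35 (27 and 8) in the deposited delta Ct, 35 with no filter and 55 with the replicate block. The split was 34 to 20 scaled to MammU6, 36 to 39 to the median and 34 to 31 by quantiles. Leaving out 1 array gave 40 to 73, with 46, 40 and 40 without syngeneic pools 1, 2 and 3. Grafts against normal heart, 99 calls (48 and 51), gave 36 (23 and 13) scaled to MammU6, 60 with no filter, 65 to 23 scaled to snoRNA202, 57 to 21 in the deposited delta Ct, and 60 to 113 leaving out 1 array (60 without syngeneic pool 2). GIL against PBMC, 146 calls (65 and 81), gave 88 (68 and 20) scaled to snoRNA202, 87 (66 and 21) to both, 81 (60 and 21) in the delta Ct and 130 to 160 leaving out 1 array. GIL against hearts, 127 calls (57 and 70), gave 244 with no filter, 120 with the replicate block, 33 to 66 scaled to MammU6, 36 to 82 to both small nucleolar RNAs, 75 to 52 at a limit of Ct 32, and 109 to 129 leaving out 1 array. The syngeneic minus normal heart difference of miR-193b (-0.17) turned to 0.17 scaled to MammU6, 0.27 to snoRNA202, 0.11 by quantiles and 0.271 in the delta Ct. The cause of these changes was not tested. Same-numbered arrays correlated at -0.04, -0.29 and 0.12 in hearts and 0.19, 0.23 and -0.16 in GIL, so the numbers were not taken as pairs. Run day as a random block, added after seeing the data, gave 77, 74, 98, 146 and 131 calls in the order above. The replicate block was not tried for the contrasts with a normal array. The fixed run-day block could not be fitted for those contrasts, nor for any contrast with GIL.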
